A study of Homo sapiens with 6 samples.

Results

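Cells hold on to their surroundings through integrins and through proteoglycans, which are proteins that carry long sugar chains. Syndecans span the cell membrane and glypicans are tethered to its outer face, and the heparan sulfate chains of both bind growth factors and matrix proteins. Outside the cell, small leucine-rich proteoglycans decorate collagen fibrils, hyalectans bind hyaluronan, and the glycoproteins fibronectin and tenascin C are ligands of integrins. Brain tumours are known for a matrix rich in hyaluronan, versican and tenascin C. The genes described here are those of this matrix and cell-surface set, chosen by symbol with earlier results of these data known.

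The rule took symbols of integrin subunits, laminin chains, glypicans and syndecans, together with 13 named matrix genes such as lumican (LUM) and fibronectin (FN1). It found 29 of the 14884 named genes. The 29 comprised 6 glypicans, 4 syndecans, 7 small leucine-rich proteoglycans, 3 hyalectans, the 2 glycoproteins FN1 and TNC, and 3 proteins named for binding an integrin beta chain. The other 4 were the antisense RNAs GPC5-AS1, GPC6-AS2 and ITGB2-AS1 and the pseudogene SDC4P, whose symbols also match the rule. No symbol of an integrin subunit, of a laminin chain or of SPARC was among the named genes, so these are not analysed here. The set is therefore described as proteoglycans, matrix glycoproteins and integrin-binding proteins.

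The samples were U-87 MG cells, an established human glioblastoma line, and every array came from this single line. Exposed cells (3 arrays) spent 54 h without interruption in electromagnetic fields named RGFIELDS, starting 24 h after plating, in a culture box within a Faraday chamber. The submitters name hsa-miRNA-381, the mutated alpha-kinase 2 gene, HSP70 and CHI3L1 as targets of the fields, which was not tested here. The CHI3L1 probe set had a change of 0.14 (limma adjusted p = 0.430). Unexposed cells (3 arrays) of the same line and medium stayed in a control box outside that chamber, so field and box cannot be told apart. Titles call each array a biological replicate, while the description of the exposed samples contains both the word exposed and the word control. Values are log2 expression after RMA (robust multi-array average), with array medians of 3.96 to 3.99. The signals of different probe sets cannot be compared as amounts of RNA, and fewer cells of a type cannot be told apart from less RNA per cell. Among astrocyte and glioma genes the probe sets of VIM (10.48 in exposed and 10.54 in unexposed cells), SOX9 (9.61 in both) and CD44 (8.87 and 8.99) lay well above the array medians. Those of AQP4, S100B and SOX2 lay below the medians, and GFAP, the classical astrocyte filament, stood at 5.21 in exposed and 4.86 in unexposed cells. Over all probe sets, pairs of exposed arrays correlated at 0.987 to 0.988, pairs of unexposed arrays at 0.985 to 0.986, and mixed pairs at 0.982 to 0.987.

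Lumican rose in exposed cells, and it was the single member of the 29 that passed the test. LUM encodes a keratan sulfate proteoglycan of collagen-rich matrix that helps to space collagen fibrils. Its values were 7.26, 7.48 and 7.12 on the exposed arrays and 6.32, 6.60 and 6.43 on the unexposed arrays. All exposed values lay above all unexposed values, with a gap wider than the range within each group. The means were 7.28 ± 0.18 (exposed) and 6.45 ± 0.14 (unexposed), each the mean ± SD of 3 arrays. The log2 change, exposed minus unexposed, was 0.83 (SE 0.12), or 1.78-fold with a 95% interval of 1.48 to 2.15, at a limma adjusted p of 0.0287 over genes and 0.0375 over all probe sets. Of all genes tested, 3.06% passed the same threshold (an adjusted p under 0.05), 1.4% higher and 1.67% lower, against 3.45% of the members. The members' share was thus near that of all genes. The size of the LUM change stayed between 0.74 and 0.92 when any array was left out, but its adjusted p then lay between 0.0294 and 0.120 and passed only without exposed replicate 3.

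**Figure D1:**
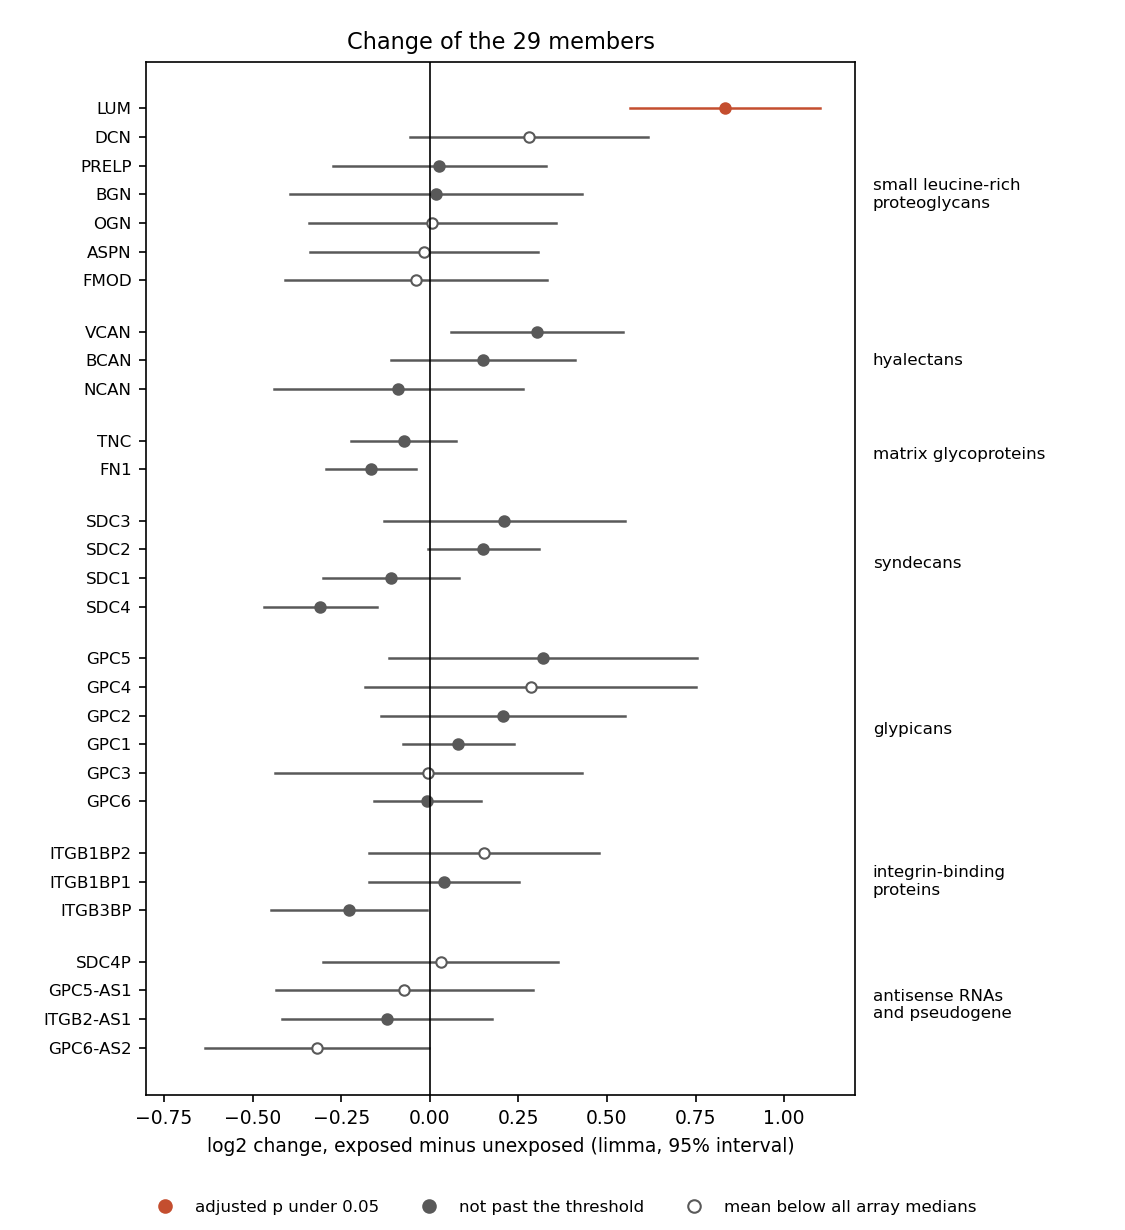
Log2 change (exposed minus unexposed, x axis) of each of the 29 members with its 95% interval from limma, grouped by role. The red point, LUM at 0.83, passed the threshold; grey points did not, and open points mark the 10 members whose mean lay below every array median.

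The other small leucine-rich proteoglycans did not pass. Decorin (DCN), which binds collagen and transforming growth factor beta, lies next to LUM on chromosome 12 in the RefSeq annotation. DCN had values of 2.82, 2.50 and 2.58 on exposed arrays and 2.42, 2.34 and 2.29 on unexposed arrays. The DCN groups did not overlap, yet all 6 values were below the array medians, and the change was 0.28 (95% interval -0.05 to 0.62, limma adjusted p = 0.353). KERA, the keratan sulfate proteoglycan of the cornea and the neighbour of LUM on its other side, stood at 2.29 in exposed and 2.38 in unexposed cells, with a change of -0.09. EPYC, a cartilage relative, stood at 3.36 and 2.99, with a change of 0.38 (limma adjusted p = 0.445). KERA and EPYC were named here after their values were seen. Of LUM, DCN, KERA and EPYC, LUM alone was above the array medians.

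Biglycan (BGN), a close relative of decorin, was above the medians and its exposed arrays were the most scattered of the class. BGN had values of 5.02, 5.74 and 5.40 in exposed cells, a range that enclosed the unexposed values of 5.38, 5.46 and 5.26. Its change was 0.02 (95% interval -0.39 to 0.43). PRELP, which anchors basement membranes to collagen, stood at 4.67 ± 0.11 (exposed) and 4.64 ± 0.17 (unexposed), each the mean ± SD of 3 arrays. Fibromodulin (FMOD), a regulator of collagen fibril assembly that neighbours PRELP, had a change of -0.04. Osteoglycin (OGN) and asporin (ASPN), extracellular proteins of bone and cartilage, had changes of 0.0066 and -0.02. FMOD, OGN and ASPN were all below the array medians, where no detection call shows whether a transcript was measured. Apart from LUM and DCN, the class spanned -0.04 to 0.03.

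Among the hyalectans, versican (VCAN), a large chondroitin sulfate proteoglycan of provisional and tumour matrix, had the largest difference and a bright signal. VCAN values were 10.68, 10.64 and 10.32 on exposed arrays and 10.23, 10.14 and 10.37 on unexposed arrays. Exposed replicate 3 lay below unexposed replicate 3, so the groups overlapped. The VCAN change was 0.30 (SE 0.11, interval 0.06 to 0.55) at a limma adjusted p of 0.169, and it was 0.42 without exposed replicate 3 (range 0.24 to 0.42 over the left-out arrays). A second VCAN probe set had means of 4.93 ± 0.26 (exposed) and 4.48 ± 0.12 (unexposed), each the mean ± SD of 3 arrays. Its change was 0.45, with an adjusted p of 0.241 over all probe sets in limma. The groups of this second probe set did not overlap, with nearest values of 4.66 (exposed) and 4.61 (unexposed). Both VCAN probe sets thus had exposed replicate 3 as the lowest exposed array. Brevican (BCAN) and neurocan (NCAN), the hyalectans of brain tissue, did not pass. BCAN stood at 5.20 ± 0.04 in exposed and 5.05 ± 0.16 in unexposed cells, and NCAN at 4.28 ± 0.20 and 4.37 ± 0.17 (SD, n = 3 each). Their groups overlapped.

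Neither matrix glycoprotein passed, and both gave bright signals. Fibronectin (FN1), a ligand of several integrins, had values of 11.96, 11.98 and 11.89 on exposed arrays and 12.02, 12.17 and 12.13 on unexposed arrays. The FN1 groups did not overlap, but the gap of the nearest arrays was small beside the unexposed range. The change was -0.17 (SE 0.05, interval -0.29 to -0.04, limma adjusted p = 0.148). Tenascin C (TNC), a glycoprotein that modulates adhesion to fibronectin, had values of 11.74, 11.78 and 11.64 on exposed arrays and 11.78, 11.70 and 11.90 on unexposed arrays. The TNC groups overlapped. The change was -0.07 (95% interval -0.22 to 0.08), and it turned to 0.0100 when ribosomal protein genes set the centre of each array.

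The syndecans did not move as a group. Syndecan 4 (SDC4), which works with integrins at focal adhesions, had values of 10.51, 10.41 and 10.64 on exposed arrays and 10.80, 10.90 and 10.79 on unexposed arrays. All exposed SDC4 values lay under all unexposed values. The change was -0.31 (SE 0.07, interval -0.47 to -0.15), or 0.808-fold, at a limma adjusted p of 0.0576, just outside the threshold. SDC4 did pass without exposed replicate 3 (-0.37, limma adjusted p = 0.0447), in the fit restricted to brighter probe sets (0.0421) and in the fit on 1 probe set per gene (0.0134). Over all its alternatives the adjusted p of SDC4 ran from 0.0134 to 0.240. Syndecan 2 (SDC2), the mesenchymal syndecan, had values of 7.83, 7.79 and 7.69 in exposed and 7.58, 7.66 and 7.62 in unexposed cells. These SDC2 groups did not overlap either, and the change was 0.15 (95% interval -0.0045 to 0.31, limma adjusted p = 0.278). Syndecan 1 (SDC1), the main syndecan of epithelia, stood at 7.80 ± 0.04 in exposed and 7.91 ± 0.14 in unexposed cells, a change of -0.11. Syndecan 3 (SDC3), the neural syndecan, stood at 5.48 ± 0.18 and 5.27 ± 0.22 (SD, n = 3 each), a change of 0.21 with overlapping groups. The class thus spanned -0.31 to 0.21, with 2 positive and 2 negative values.

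**Figure D2:**
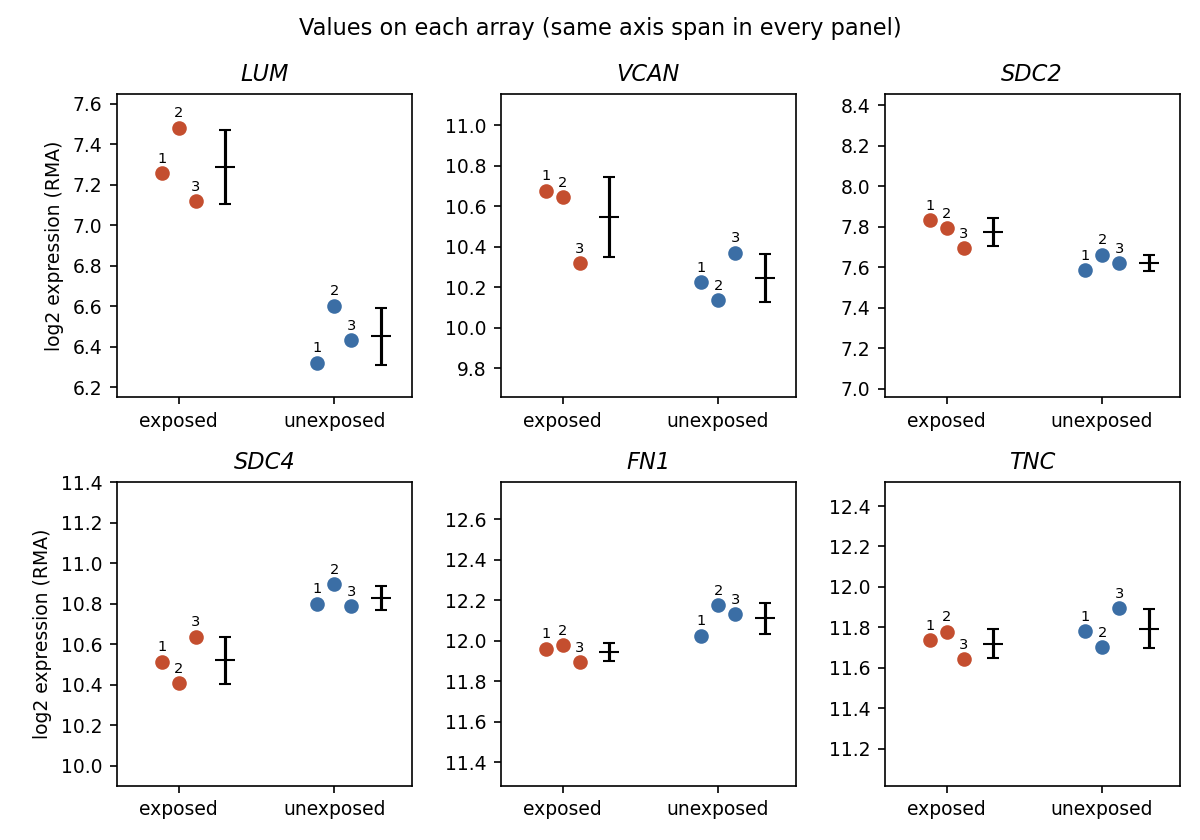
Log2 expression (y axis) of 6 members on each of the 3 exposed (red) and 3 unexposed (blue) arrays, numbered by replicate, with the mean and SD in black beside each group. Every panel spans 1.5 log2 units, and the gap between groups is widest for LUM; VCAN and TNC overlap.

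The sequence before the transcription start is shown for SDC4, FN1 and VCAN, which with LUM had the smallest p-values of the members, so that the letters in front of genes with values on either side of 0 can be set side by side. They are the 250 bases upstream of the start in RefSeq, build GRCh38.p14, written 5′ to 3′ along the gene's strand. The windows are chr20:45348425-45348674 (minus strand) for SDC4, chr2:215436069-215436318 (minus strand) for FN1 and chr5:83471494-83471743 (plus strand) for VCAN. Of the 29 members 22 had an entry, with 27 windows in all. LUM had no entry and is not shown, and SDC4, FN1 and VCAN did not pass the threshold. Capitals mark matches, on either strand, to the GC box GGGCGG, the CCAAT box CCAAT, the E-box CACGTG, the TATA box TATAAA or the cAMP response element TGACGTCA.
SDC4: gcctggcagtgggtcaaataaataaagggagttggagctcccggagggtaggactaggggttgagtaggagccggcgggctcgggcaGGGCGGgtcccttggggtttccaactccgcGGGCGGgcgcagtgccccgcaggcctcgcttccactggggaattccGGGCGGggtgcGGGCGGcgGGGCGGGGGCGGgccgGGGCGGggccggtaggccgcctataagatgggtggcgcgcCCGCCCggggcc
FN1: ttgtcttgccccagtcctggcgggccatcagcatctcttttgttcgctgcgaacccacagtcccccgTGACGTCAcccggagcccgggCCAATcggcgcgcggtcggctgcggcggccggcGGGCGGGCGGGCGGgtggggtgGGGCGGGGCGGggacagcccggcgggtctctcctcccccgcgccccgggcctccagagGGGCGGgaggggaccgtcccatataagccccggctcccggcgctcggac
VCAN: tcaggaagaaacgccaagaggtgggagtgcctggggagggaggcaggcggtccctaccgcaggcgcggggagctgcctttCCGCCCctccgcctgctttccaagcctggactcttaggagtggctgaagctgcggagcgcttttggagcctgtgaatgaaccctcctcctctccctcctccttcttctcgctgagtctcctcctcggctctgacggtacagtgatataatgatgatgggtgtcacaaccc
The SDC4 window held 8 GC boxes and was 73.6% G and C. The FN1 window held 6 GC boxes, some of which overlap one another, with 1 CCAAT box and 1 cAMP response element that overlap no other match, and was 76.4% G and C. The VCAN window held 1 GC box and was 60.8% G and C, against a median of 58% over all windows. Among the 35116 windows of this length, 42.6% held a GC box, 32.0% a CCAAT box, 10.7% a TATA box, 6.34% an E-box and 1.65% a cAMP response element. Among the 27 windows of members, 15 held a GC box, 8 a CCAAT box, 5 a TATA box, 0 an E-box and 1, that of FN1, a cAMP response element. These are matches of letters within these windows and show no binding.

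None of the 6 glypicans passed. GPC6, a glypican of growing tissues with a bright signal here, had values of 8.78, 8.93 and 8.91 on exposed arrays and 8.91, 8.81 and 8.93 on unexposed arrays. The GPC6 groups were interleaved, and the change of -0.0064 had an interval of -0.16 to 0.15, which leaves room for a fold of 0.896 to 1.11. Glypican 1 (GPC1), the glypican of many adult tissues and a binder of fibroblast growth factors, had values of 7.38, 7.31 and 7.45 on exposed and 7.30, 7.29 and 7.30 on unexposed arrays. The unexposed GPC1 values were nearly alike and all lay under the exposed ones, yet the change was 0.08 (interval -0.08 to 0.24, limma adjusted p = 0.597). A second GPC1 probe set gave 5.34 ± 0.17 (exposed) and 5.19 ± 0.05 (unexposed), each the mean ± SD of 3 arrays.

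Glypicans with signals nearer to or below the array medians did not pass either. GPC5 had values of 4.19, 4.42 and 4.54 in exposed and 3.72, 4.10 and 4.37 in unexposed cells, a change of 0.32 (95% interval -0.12 to 0.75). GPC4 had values of 3.35, 3.79 and 4.08 in exposed and 3.34, 3.41 and 3.61 in unexposed cells, a change of 0.29. Both overlapped between groups, and in each the wider of the 2 within-group ranges exceeded the difference between the group means. GPC2, a glypican of the developing nervous system, stood at 5.02 ± 0.19 (exposed) and 4.81 ± 0.20 (unexposed), each the mean ± SD of 3 arrays. GPC3, a fetal glypican known as a marker of liver cancer, stood at 2.90 in both, below the array medians.

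The integrin-binding proteins did not pass. ITGB1BP1, which binds the tail of the integrin beta 1 chain and holds the receptor inactive, had values of 7.02, 6.83 and 6.95 on exposed and 6.76, 6.92 and 6.999 on unexposed arrays. Its groups were interleaved and the change was 0.04 (interval -0.17 to 0.25). ITGB3BP, named for binding the integrin beta 3 chain and also known as the centromere protein CENP-R, had values of 5.49, 5.47 and 5.63 in exposed and 5.66, 5.83 and 5.78 in unexposed cells. The ITGB3BP groups lay apart by less than the range within either, with a change of -0.23 (interval -0.45 to -0.01, limma adjusted p = 0.250). Mitosis genes were lower in exposed cells on the same arrays. Of 11 measured 7 fell (MKI67, TOP2A, CCNB2, CDK1, BUB1B, PLK1 and KIF11, with changes of -0.63 to -0.46), or 63.6%, beside 1.67% of all genes. All 11 had negative values, with list means of 8.63 to 8.89 on exposed and 9.17 to 9.38 on unexposed arrays. The highest limma adjusted p of these 7 was 0.120 to 0.153 with an array left out and 0.163 to 0.169 in other settings. The part of the mitosis genes in the ITGB3BP value was not tested. The muscle protein melusin, encoded by ITGB1BP2, lay below the medians at 2.80 ± 0.14 (exposed) and 2.65 ± 0.04 (unexposed), each the mean ± SD of 3 arrays.

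Of the noncoding members, GPC6-AS2 had the largest difference, with values of 2.20, 2.34 and 2.40 on exposed and 2.69, 2.66 and 2.54 on unexposed arrays. These GPC6-AS2 groups did not overlap, but all values were below the array medians, and the change was -0.32 (interval -0.63 to -0.0030, limma adjusted p = 0.260). ITGB2-AS1 had values of 4.12, 4.03 and 3.93 on exposed and 4.27, 4.04 and 4.14 on unexposed arrays, which overlapped, and a change of -0.12 (limma adjusted p = 0.694). GPC5-AS1 stood at 2.16 ± 0.11 in exposed and 2.23 ± 0.21 in unexposed cells, and the pseudogene SDC4P at 2.45 ± 0.15 and 2.42 ± 0.09 (SD, n = 3 each). Among these, no group of 3 lay apart from the other except for GPC6-AS2.

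In all, exposed and unexposed values did not overlap in 8 of the 29 members, 4 higher (LUM, SDC2, DCN and GPC1) and 4 lower (SDC4, FN1, ITGB3BP and GPC6-AS2). That is 27.6% of members, against 27% of all genes tested. An unadjusted p under 0.05 was reached by 6 members, among all genes by 18.9%. The median change of the members was 0.02, with 16 positive and 13 negative values, and that of all genes was 0.0029. The median absolute change was 0.12 for members and 0.13 for all genes. Of the members, 10 had a mean below every array median and 19 did not. By these counts the members were spread about as all genes were.

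**Figure D3:**
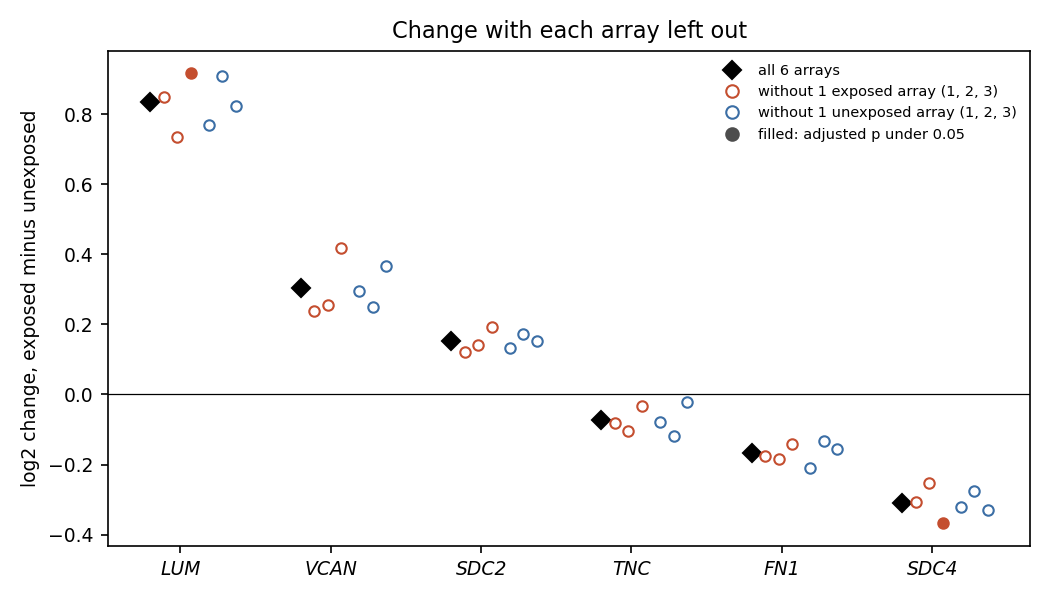
Log2 change (exposed minus unexposed, y axis) of 6 members with all arrays (diamonds) and with each exposed (red) or unexposed (blue) array left out in the order of replicates 1 to 3. Filled circles passed the threshold: LUM and SDC4 without exposed replicate 3; no sign changed among these 6 genes.

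The other genes of this pathway were taken from 8 lists of matrix proteins, receptors, adhesion proteins and enzymes. These lists were chosen with earlier results of these data known, so their share of calls supports no finding by itself. Of the listed genes outside the member set 153 were measured, of which 12 rose and 2 fell, 9.15% in all beside the 3.06% of all genes. Their median change was 0.05, with 89 positive and 64 negative values. Of the 28 listed collagens 0 were among the named genes, so the matrix list is incomplete. Probe sets without a single gene symbol were not searched for them. The counts of 12 and 2 became 0 and 0 without exposed replicate 1 or 2 and without unexposed replicate 2 or 3. They were 3 and 0 without unexposed replicate 1, and 10 and 2 without exposed replicate 3. These counts do not stand for the same genes. LOXL1, HAS2, PCOLCE2, CHST7, SRGN and TSKU, named below, passed in 0 of the fits with an array left out. The 2 lower genes without exposed replicate 3 were therefore not LOXL1 and HAS2.

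Among 21 matricellular proteins and integrin ligands 3 rose and none fell, with a median of 0.09. CCN4, a secreted target of Wnt signalling, had values of 6.96, 7.21 and 6.69 on exposed arrays and 6.24, 5.83 and 6.11 on unexposed arrays. The CCN4 groups did not overlap, though their gap was narrower than the exposed range. The CCN4 change was 0.90 (SE 0.15, 1.86-fold, limma adjusted p = 0.0336). SPP1, the integrin ligand osteopontin, rose by 0.44 (SE 0.06) and CCN3, a sister protein of CCN4, by 0.51 (SE 0.09). Each of the 3 had higher values on every exposed array than on any unexposed array.

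Among 19 other surface proteoglycans and matrix receptors 4 rose and none fell, with a median of 0.05. NRP2, a receptor for semaphorins and vascular endothelial growth factors, had values of 8.60, 8.66 and 8.30 on exposed arrays and 7.89, 7.64 and 7.70 on unexposed arrays. The groups did not overlap and the change was 0.78 (SE 0.11, 1.71-fold, limma adjusted p = 0.0298). The collagen receptor kinase DDR1 rose by 0.49 (SE 0.07), serglycin (SRGN), a proteoglycan of secretory granules, by 0.40 (SE 0.08) and TSKU, a small leucine-rich protein outside the member rule, by 0.40 (SE 0.08).

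The enzymes that build and modify the matrix moved in both directions. Of 42 enzymes of heparan sulfate and other glycosaminoglycan chains 2 rose and 40 did not pass, with a median of 0.06. The 2 act in sulfation: PAPSS2, which makes the sulfate donor, rose by 0.52 (SE 0.09) and the chondroitin sulfotransferase CHST7 by 0.51 (SE 0.11). Changes in this list were positive for 25 genes and negative for 17, among these the sulfotransferase HS2ST1 at -0.34 (limma adjusted p = 0.0728). Of 12 genes of collagen processing 2 rose, the procollagen enhancer PCOLCE2 by 0.61 (SE 0.12) and the collagen galactosyltransferase COLGALT1 by 0.39 (SE 0.07). The crosslinking enzyme LOXL1 fell, with values of 9.34, 9.48 and 9.45 on exposed and 9.87, 10.19 and 9.87 on unexposed arrays. This LOXL1 change of -0.56 (SE 0.10) had a limma adjusted p of 0.0335, and its groups did not overlap.

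In the hyaluronan list 1 of 14 genes passed. HAS2, a synthase of hyaluronan, the chain that versican binds, had values of 5.89, 6.10 and 6.15 on exposed arrays and 6.68, 7.09 and 6.57 on unexposed arrays. HAS2 fell by 0.73 on the log2 scale (SE 0.15, 0.602-fold, limma adjusted p = 0.0438), with no overlap between groups. CEMIP, which takes part in the breakdown of hyaluronan and was named after its values were seen, had values of 9.94, 10.17 and 9.63 in exposed and 9.30, 8.84 and 9.31 in unexposed cells. CEMIP missed the threshold with a change of 0.76 (limma adjusted p = 0.0522), although its groups lay apart. The hyaluronan receptor CD44 had a change of -0.12 (limma adjusted p = 0.330).

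Of 18 basement membrane and other glycoproteins 1 rose, the fibulin EFEMP1, by 0.52 (SE 0.09), and the median was 0.01. Changes in this list were positive for 9 genes and negative for 9. Among the negative ones, ECM1 at -0.33 (limma adjusted p = 0.0504) and FBN1 at -0.37 (0.0517) narrowly missed the threshold, with groups apart. Of 27 focal adhesion and integrin signalling genes 0 passed in limma, while 8 had an unadjusted p under 0.05, beside 18.9% of all genes. The adaptor paxillin (PXN) came nearest, with values of 10.60, 10.62 and 10.59 on exposed and 10.80, 10.88 and 10.81 on unexposed arrays. The PXN change of -0.23 (SE 0.05) had a limma adjusted p of 0.0502, at the edge of the threshold, and PXN passed in 2 of 8 other settings. The paxillin relative TGFB1I1 had the smallest p among positive values, with a change of 0.27 (limma adjusted p = 0.0992).

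**Figure D4:**
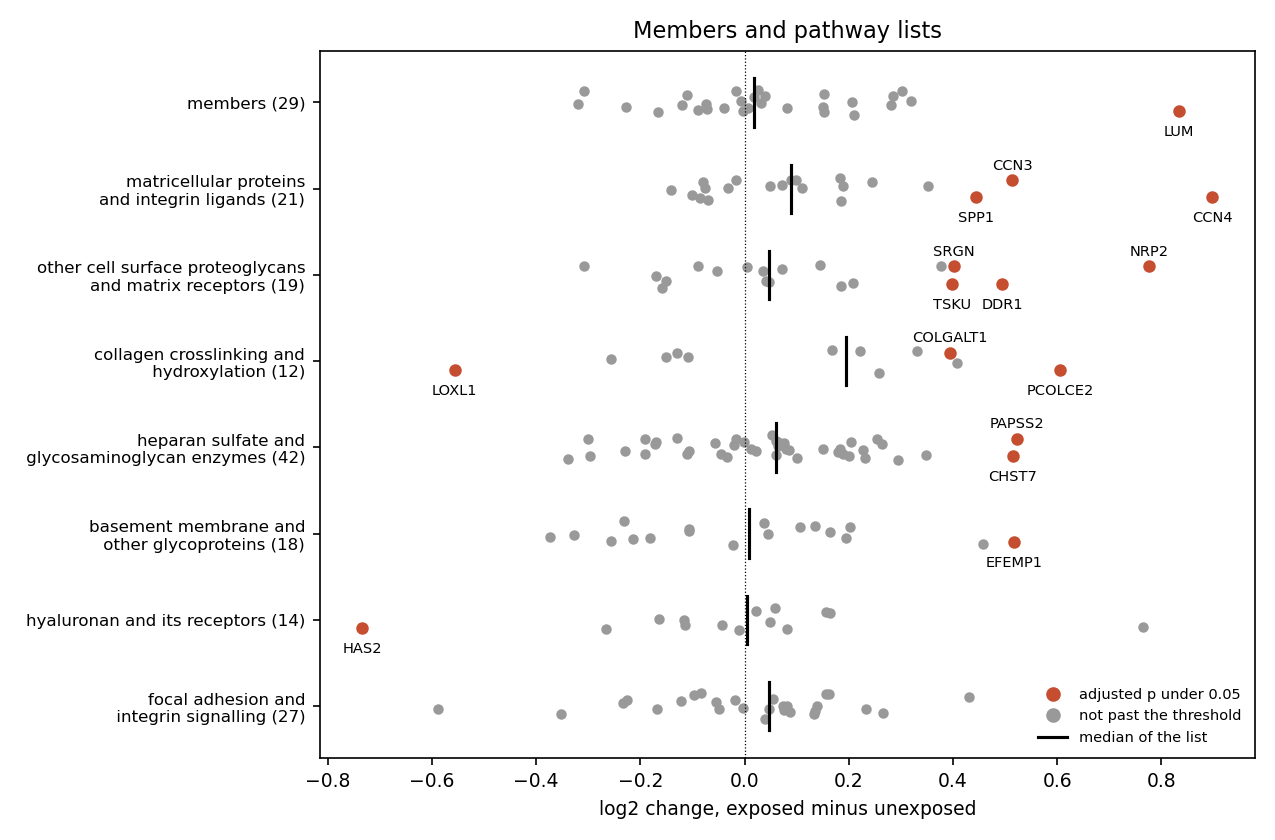
Log2 change (exposed minus unexposed, x axis) of each member and of each measured gene in 7 pathway lists (number of genes in brackets); black bars are medians. Red points with names passed the threshold, 1 among the members and 14 among the lists, of which LOXL1 and HAS2 were lower in exposed cells.

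Markers of other cell types were looked at because lumican and decorin are typical products of fibroblasts. Over all genes tested, 3.06% passed the threshold and 18.9% had an unadjusted p under 0.05 in limma. Of 4 measured fibroblast and pericyte markers 0 passed in limma and 2, PDPN and TAGLN, had an unadjusted p under 0.05. Their list means were 5.61 to 5.74 on exposed and 5.54 to 5.63 on unexposed arrays. Positive changes were seen in 3, PDPN at 0.30 (limma adjusted p = 0.0637), TAGLN at 0.32 (0.247) and THY1 at 0.03, and a negative change in RGS5 at -0.23. Their part in the LUM value was not tested. Of 7 microglia and macrophage markers 0 passed and 1, TMEM119 with a change of 0.65 (limma adjusted p = 0.0835), had an unadjusted p under 0.05. All 7 had positive values, with list means of 5.41 to 5.46 on exposed and 5.12 to 5.25 on unexposed arrays, while CD163, CX3CR1 and CD14 were below the array medians. Among 9 endothelial markers 0 passed and 1 had an unadjusted p under 0.05, with KDR at -0.43 and ENG at 0.11. Of 4 neuronal markers MAP2 rose by 0.91 (SE 0.12), and the other 3 lay between 0.0076 and 0.15. Of 10 astrocyte and glioma markers 0 passed and 2 had an unadjusted p under 0.05, GFAP at 0.35 and S100B at -0.42. Of 4 oligodendrocyte and 4 lymphocyte markers 0 passed and 0 had an unadjusted p under 0.05, with MBP at 0.02, MOBP at -0.24, CD8A at 0.18 and CD2 at -0.11.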

How the data were processed

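RNA of 3 exposed and 3 unexposed U-87 MG samples was measured on Affymetrix arrays. The deposited values are log2 RMA expression per probe set, made by the authors with Affymetrix Expression Console 3.0 and Transcriptome Analysis Console 3.0, per the submitters' processing notes. The file holds no detection calls, and the number of arrays limits precision. Of 53617 probe sets, 16098 had 1 gene symbol in the platform annotation and 37519 had several or none and stayed unnamed. Each of the 14884 genes was followed by its brightest probe set, judged by the mean of the 6 arrays. limma 3.58.1 in R 4.3.3 (lmFit, eBayes with a mean-variance trend) was fitted on all probe sets, exposed minus unexposed, with Benjamini-Hochberg adjustment over genes and a threshold of 0.05. Intervals are 95% intervals from that fit.

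The labels call the 3 arrays of a group biological replicates without naming separate cultures, so p-values measure the spread between these samples. In simulated data for 14884 genes, 100 genes were changed by 0.5 and 100 by 1 on the log2 scale. Of these, 16% and 69% were recovered, and 2 of 87 calls were unchanged genes. Such shares describe the simulated data alone and give no error rate for calls on the measured arrays. There, 208 higher and 248 lower genes became 0 and 0 with a replicate block or without the mean-variance trend. Alternatives were array centring on medians or ribosomal protein genes, repeated quantile normalization, averaging the probe sets of a gene, 1 probe set per gene in the fit, probe sets above the median level, no trend, a replicate block and leaving out each array.

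Members and gene lists were chosen with earlier results of these data known, and support no finding by themselves. Every member is named. Values per array are given for members past the threshold, for members with groups apart and an absolute change of at least 0.3, for the highest member of each class and for others whose groups lie apart or that illustrate a class. In the lists, genes past the threshold are named, otherwise the smallest p in each direction, with some others. CEMIP, KERA and EPYC were added after their values were seen. Promoter windows come from RefSeq, GRCh38.p14.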

Additional observations from a re-analysis of the deposited data

How the results depend on the processing

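LUM kept its direction in all 14 alternatives and passed in 6 of 8 that kept all arrays. Its change of 0.83 did not pass with the replicate block (limma adjusted p = 0.127) or without a mean-variance trend (0.159), and with arrays left out it was 0.74 to 0.92. The members counted higher were then 0 with the replicate block, 0 without the trend and 0 to 1 with an array left out. Members counted lower were 1 (SDC4) in the fit on 1 probe set per gene and among brighter probe sets, and 0 to 1 with an array left out. The same-numbered arrays' deviations correlated at -0.02, -0.03 and 0.0096, and those of differently numbered arrays at -0.019 to 0.035. Whether same-numbered arrays were handled together was not tested.

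Of the 153 pathway genes, 12 higher and 2 lower became 20 and 11 in the fit on 1 probe set per gene, 15 and 7 among brighter probe sets, 10 and 1 with ribosomal centring, and 0 and 0 with the replicate block or without the trend. With an array left out they ranged over 0 to 10 and 0 to 2. Over all genes, 208 higher and 248 lower became 521 and 688, 321 and 432, 185 and 154, and 0 and 0 in the same order of settings, and 0 to 142 and 0 to 183 with an array left out. In limma fits with 0 calls, 2065 to 2287 genes had an unadjusted p under 0.05, against 2815 in the fit as reported.

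Reversals fell on changes close to 0. Ribosomal centring, which put the median change of all genes at 0.0858 against 0.0029 as reported, gave ASPN 0.0671, FMOD 0.0436, GPC3 0.0792, GPC5-AS1 0.0113, GPC6 0.0766 and TNC 0.00997. Quantile normalization gave ASPN 0.00818, GPC3 0.000315 and GPC6 0.0293, and centring on medians gave OGN -0.0055. With an array left out, ASPN ranged over -0.0717 to 0.0736, BGN over -0.16 to 0.202, FMOD over -0.125 to 0.0561, GPC3 over -0.17 to 0.113, GPC5-AS1 over -0.138 to 0.0505 and GPC6 over -0.0412 to 0.0387. ITGB1BP1 ranged over -0.0271 to 0.0932, NCAN over -0.188 to 0.00911, OGN over -0.0856 to 0.0794, PRELP over -0.0439 to 0.12 and SDC4P over -0.0293 to 0.111. CD2 ranged over -0.289 to 0.0356, MBP over -0.0408 to 0.118 and KERA over -0.211 to 0.0222. The cause of these differences was not tested. Without detection calls, the 10 members below the array medians cannot be told from background.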
